A study of Mus musculus with 2 samples.

Results

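The angiopoietin and Tie receptor genes described here are 6 genes of 1 signalling pathway: the ligand gene *Angpt2*, the receptor genes *Tek* and *Tie1*, the receptor phosphatase gene *Ptprb*, and the transcription factor genes *Foxo1* and *Foxo3*. They were chosen by gene symbol, through the Ensembl identifier of each row, and all 6 had a row among the 22734 rows of the P6 count table and the 21785 rows of the P15 count table. Both libraries came from retinas of wild-type C57BL/6 mice, 1 library at postnatal day 6 (P6) and 1 at postnatal day 15 (P15). The labels give no transgene and no treatment for either library, and cells of both were sorted by FACS for CD31, an endothelial surface protein, and against CD45, a surface protein of blood cells. The libraries were made in droplets, where a random tag called a unique molecular identifier (UMI) lets copies of 1 molecule be counted 1 time. How many mice went into a library was not given in the sources used here. With 1 library per age there was no replicate, so no p-value is given, and every interval is a 95% interval that covers counting error only. Age and library cannot be told apart.

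Angiopoietins are secreted ligands of Tie2, the receptor tyrosine kinase encoded by *Tek*. Angiopoietin-1, made mainly by mural and other perivascular cells, activates Tie2 and steadies vessels, whereas angiopoietin-2, made by endothelial cells and long used as a marker of sprouting tip cells, acts mostly as a context-dependent antagonist. Tie1 is an orphan receptor that pairs with Tie2, and the phosphatase VE-PTP, encoded by *Ptprb*, removes phosphate from Tie2. Active Tie2 signals through PI3K and AKT, which keep FOXO factors out of the nucleus, and nuclear FOXO1 in turn can raise transcription of *Angpt2*.

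Cells were used if they passed the exclusion criteria of the study or held one of its cluster labels, which left 1585 of 1984 barcodes at P6 (9729405 UMIs, median 5316 per cell) and 1673 of 2141 at P15 (7709840 UMIs, median 4300.0 per cell). Labelled cells with more genes than the upper limit, as read here, were kept: 161 of 329 such barcodes at P6 but 29 of 199 at P15, where fewer labels were at hand, so the sets of the ages were not chosen alike. Without them the P15 to P6 ratios below would be 1.74 for *Angpt2*, 0.918 for *Tek*, 1.27 for *Tie1*, 3.86 for *Ptprb*, 1.53 for *Foxo1* and 1.19 for *Foxo3*. Levels are the UMIs of a gene per 1000000 UMIs of the same cells, summed over cells and written CPM. The endothelial label was checked against markers, and all 10 endothelial markers were detected in both libraries. Their summed level was 10872 CPM at P6 and 17431 at P15, against 24.5 and 83.7 for 10 photoreceptor and neural markers and 22.1 and 171 for 5 red blood cell markers. The exclusion criteria remove barcodes with a UMI of *Neurod1* or *Hbb-bt*, which belong to these lists, so the low sums were set in part by that choice. Markers of Müller glia and astrocytes summed to 720.1 CPM at P6 and 1590.2 at P15, and those of horizontal cells to 272 and 407, of which 1 marker gave 272 and 406. The part of these lists in the results was not tested. The summed level of 12 mural cell markers was 14.2 CPM at P6 and 334 at P15, with 11 of 12 detected at each age. Cells with UMIs of 2 or more mural markers made up 0.379% of the P6 cells and 9.62% of the P15 cells. The libraries shared 7 barcode sequences. The cluster sheet of the study names 9 clusters, and the copy used here covered 1560 P6 cells and only the first 438 P15 cells, so that values by cluster rest on fewer cells at P15. Only 2 Venous cells were labelled at P15, and that cluster is left out of comparisons between ages.

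Of the 6 genes, *Ptprb* rose most with age, *Angpt2*, *Foxo1* and *Tie1* were moderately higher at P15, and the intervals of *Tek* and *Foxo3* included no difference. Among 9756 genes with at least 100 UMIs over both libraries, 18.2% had a P15 to P6 ratio of at least 1.5 and 11.4% a ratio of at most 1/1.5, and the median ratio was 1.09. Of the 6 genes, 3 had a ratio of at least 1.5 (*Angpt2*, *Ptprb* and *Foxo1*) and 0 had a ratio of at most 1/1.5. The genes also differed across clusters: *Angpt2* was concentrated in Tip cells, where *Tek* was low. At P6 the other 5 genes were high in Capillary cells, and all 6 genes were low in Primitive cells, beyond counting error. Of all tested genes, 20.1% were at least 1.5-fold higher in P6 Capillary cells and 39.4% were lower by that fold in P6 Primitive cells. At P15 *Tek*, *Tie1*, *Ptprb* and *Foxo1* were high in Capillary cells beyond counting error. *Ptprb* and *Foxo1* were low in P15 Primitive cells beyond counting error. In P6 Cap-Arterial cells *Tek*, *Tie1*, *Ptprb* and *Foxo1* were also high beyond counting error. Of the 6 genes, 2 were at least 1.5-fold higher there, and the share of all genes that were was not computed. The plot of levels by cluster shows both ages.

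**Figure D1:**
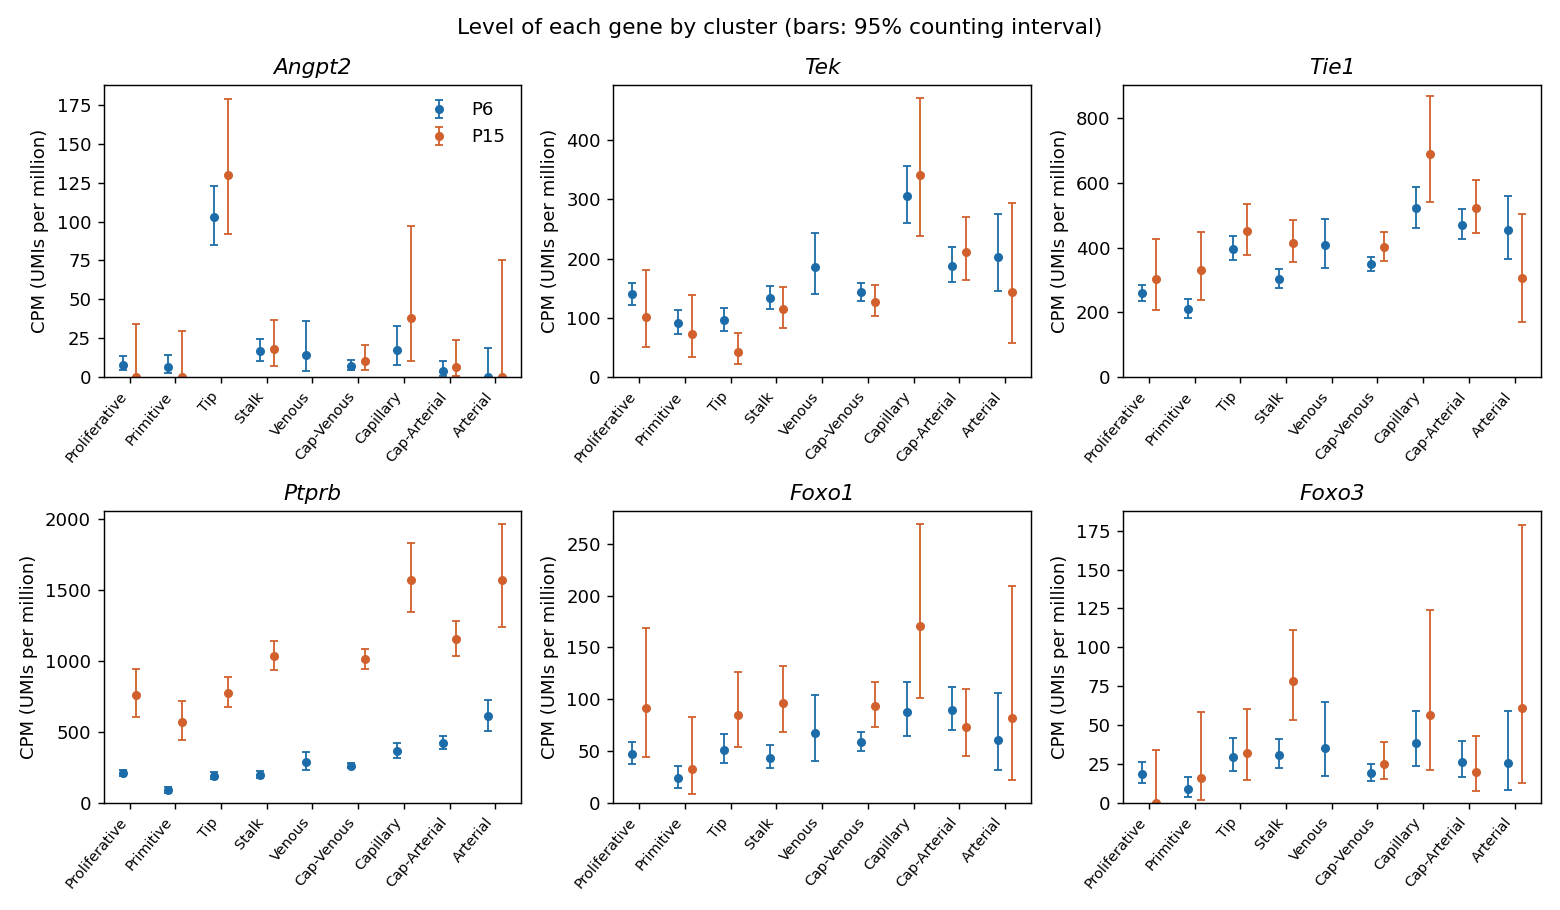
CPM of the 6 genes (y axes, each from 0) in the labelled cells of each cluster (x axis) at P6 (blue) and P15 (orange), with 95% counting intervals; the P15 Venous cluster is not drawn because it held 2 cells. *Angpt2* stands out in Tip cells at both ages, and the P15 points of *Ptprb* lie above the P6 points in all 8 clusters drawn for both ages.

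*Angpt2* lies on chromosome 8 at 18690263 to 18741562, minus strand (GRCm38), inside the gene *Mcph1* on the other strand. Whether counting used strand was not given in the sources used here, so reads of overlapping genes cannot be told apart. It had 200 UMIs at P6 and 250 at P15. Its level was 20.6 CPM at P6 (interval 17.8 to 23.6) and 32.4 at P15 (28.5 to 36.7), a ratio of 1.58 (1.30 to 1.91). Few cells carried it: 6.88% of P6 cells (5.68 to 8.24) and 7.95% of P15 cells (6.70 to 9.35) had at least 1 UMI, and after every cell was thinned to 3000 UMIs, which left out 179 shallower cells at P6 and 481 at P15, the shares were 4.62% and 5.87%. The highest count in a single cell was 11 UMIs at P6 and 20 at P15. No UMI of *Angpt2* was found in the 26 P6 barcodes (median 2948 UMIs) or the 10 P15 barcodes (median 1505 UMIs) that had at most 1 of the 10 endothelial markers. The intervals of these zeros reach 46.0 CPM at P6 and 280.2 at P15, above the levels of the cells used, so they do not show absence. The age ratio depended on which barcodes entered: over every barcode of the tables it was 1.17, and with cells carrying a UMI of *Cd63* kept, which the exclusion criteria remove, it was 1.41. In the P15 cells with 2 or more mural markers the level was 36.9 CPM, 1.14 times that of all P15 cells used (0.771 to 1.63).

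Tip cells, the leading cells of vascular sprouts, held most *Angpt2*. At P6, 115 of the 192 UMIs in labelled cells (59.9%) lay in the 170 Tip cells, which were 10.9% of labelled cells. The level in Tip cells was 103 CPM (84.8 to 123), against 9.03 in all other labelled cells, a ratio of 11.4 (8.45 to 15.4). At P15 it was 130.2 (91.7 to 179) in 46 Tip cells against 11.9 elsewhere, a ratio of 11.0 (6.31 to 19.6). Among the 6 genes, *Angpt2* was the only one at least 1.5-fold higher in Tip cells at P6, where 6.02% of tested genes passed that fold. It was also the only one at P15, but its 59 UMIs in labelled P15 cells are fewer than the 100 asked of tested genes, of which 7.66% passed, and none of the 4 tested genes among the 6 did. The clusters were made by the study from these cells and genes, so these ratios describe the clusters and are no test of them. Mural markers summed to 10.7 CPM in Tip cells and 10.7 in other labelled cells at P6, and to 211 and 231 at P15.

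Even within the Tip cluster *Angpt2* was found in a minority of cells. A UMI was present in 43 of 170 Tip cells at P6 (25.3%, 19.0 to 32.5) and in 16 of 46 at P15 (34.8%, 21.4 to 50.2), and in 19.9% and 19.5% after thinning. At P6, 19 Tip cells had 1 UMI, 8 had 2 and 16 had 3 or more. The 5 Tip cells with the most UMIs held 33.0% of the Tip UMIs at P6 but 67.6% at P15. Without the 5 cells with the most UMIs of each library, the Tip ratio at P15 was 3.99 in place of 11.0, so the P15 size rests on few cells. With labels predicted for the remaining P15 cells from their nearest labelled neighbours, a step that was right for 69.6% of held-out Tip cells, 159 Tip cells had 165 UMIs and the ratio was 14.2 (10.9 to 18.7).

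Outside Tip cells, no neighbouring clusters in the order of *Angpt2* levels differed beyond counting error. Clusters further apart in the order were not compared, so this does not show equal levels. At P6 the order was Capillary (17.2), Stalk (16.4), Venous (14.1), Proliferative (7.76), Cap-Venous (7.14), Primitive (6.37) and Cap-Arterial (3.59 CPM). In Arterial cells 0 UMIs were counted in 40 cells at P6, which allows a level of up to 15.2 CPM, and 0 in 11 cells at P15, which allows up to 61.1. Within Tip cells the P15 to P6 ratio was 1.27 (0.850 to 1.85), and in none of the 7 compared clusters with a UMI did the interval exclude 1. With predicted labels the Tip ratio was 1.73 (1.36 to 2.22).

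**Figure D2:**
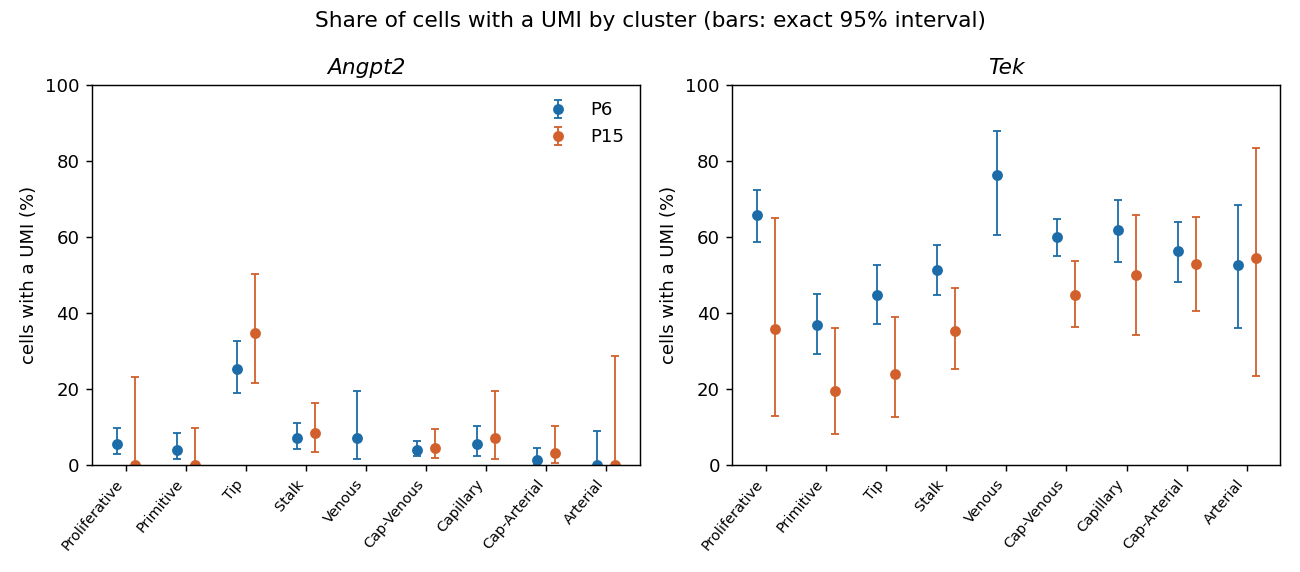
Percent of labelled cells with at least 1 UMI of *Angpt2* (left) and *Tek* (right) by cluster, at P6 (blue) and P15 (orange), with exact 95% intervals, unthinned. *Angpt2* was found in 25.3% of P6 and 34.8% of P15 Tip cells, and *Tek* was found in 44.7% of P6 and 23.9% of P15 Tip cells.

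The other angiopoietin genes were nearly absent. *Angpt1*, the activating ligand gene, had 3 UMIs in the P6 cells, 2 of them in Arterial and 1 in Cap-Arterial cells, and 0 at P15, which allows up to 0.389 CPM. *Angpt4* had 0 UMIs in both libraries, which allows up to 0.308 CPM at P6. A comparison between ages was not possible at these counts.

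*Tek*, the Tie2 receptor gene, lies on chromosome 4 at 94739289 to 94874976, plus strand. The RefSeq promoter table of GRCm38.p6 held 4 of the 6 genes, and the *Tek* entry is shown because its start site is the same in RefSeq and GENCODE, and because *Tek* was low in the Tip cells where *Angpt2* was high. The 250 bases before the start (chr4:94739039-94739288, plus strand) read, 5′ to 3′, with matches of the ETS core motif (GGAA, searched on both strands, so also TTCC) in capitals:
Tek promoter: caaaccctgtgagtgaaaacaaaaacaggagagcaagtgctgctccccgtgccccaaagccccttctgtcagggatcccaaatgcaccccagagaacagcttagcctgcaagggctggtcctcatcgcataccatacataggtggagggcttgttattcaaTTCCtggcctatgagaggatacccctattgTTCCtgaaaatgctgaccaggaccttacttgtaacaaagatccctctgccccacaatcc
ETS factors are a family that endothelial genes commonly use. The core occurred 2 times here, and 76.8% of 32851 promoters of this length held as many or more, so the count is ordinary. The FOXO core GTAAACA, searched on both strands and not overlapping the ETS core, was not among these letters, and 3.17% of promoters held it. These are matches of letters and not binding sites.

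*Tek* was nearly level between the ages. It had 1433 UMIs at P6 and 1078 at P15. The level was 147 CPM at P6 (139.8 to 155) and 139.8 at P15 (132 to 148), a ratio of 0.949 (0.876 to 1.03). A larger ratio was measured for 65.5% of tested genes, and the median over tested genes was 1.09. With mitochondrial and ribosomal protein genes out of the total, the *Tek* ratio was 0.858, below that interval. A UMI was found in 55.6% of P6 cells and 42.8% of P15 cells, but after thinning the shares were 34.1% and 31.8%. In barcodes with at most 1 endothelial marker *Tek* had 1 UMI in 26 barcodes at P6 and 0 in 10 at P15. The P15 interval reaches 2.01 times the cells used.

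Across clusters *Tek* was highest in Capillary cells and lowest in Primitive and Tip cells. In Capillary cells it reached 306 CPM at P6, 2.24 times the other cells (1.89 to 2.64), and 340.5 at P15, 2.82 times (1.93 to 4.01). At P6, Arterial (202), Cap-Arterial (188), Venous (186), Cap-Venous (144) and Proliferative cells (139.7) followed, none of which differed from the next beyond counting error, while Stalk cells (133) were above Tip cells (95.6) with a ratio of 1.39 (1.09 to 1.78). Tip cells were at 0.627 times the other labelled cells at P6 (0.510 to 0.765) and 0.290 at P15 (0.148 to 0.516). Primitive cells were at 91.3 CPM at P6 and 72.6 at P15.

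The Tip cluster was the only one of 8 in which *Tek* differed between ages beyond counting error. It fell from 95.6 CPM at P6 (107 UMIs) to 42.2 at P15 (12 UMIs), a ratio of 0.442 (0.221 to 0.804). With predicted labels, where 49 UMIs entered at P15, the ratio was 0.553 (0.386 to 0.782). After thinning, *Tek* was found in 26.9% of Tip cells at P6 (20.1 to 34.6) and 12.2% at P15 (4.08 to 26.2), shares whose intervals overlap.

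Ligand and receptor transcripts were found together in a minority of the cells with *Angpt2*. Among labelled P6 cells thinned to 3000 UMIs, *Tek* was found in 14 of 61 cells with *Angpt2* (23.0%, 13.2 to 35.5) and in 34.3% of 1331 cells without it (31.7 to 36.9), and these intervals overlap. Within Tip cells the shares were 5 of 31 (16.1%, 5.45 to 33.7) and 37 of 125 (29.6%, 21.8 to 38.4), which also overlap. At P15, 0 of 8 Tip cells with *Angpt2* and 5 of 33 without it had a UMI of *Tek*. In labelled P6 cells outside the Tip cluster the shares were 30.0% (14.7 to 49.4) and 34.7% (32.1 to 37.5). At this depth a difference within or outside Tip cells was not detectable.

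*Tie1*, the orphan partner of Tie2, lies on chromosome 4 at 118471191 to 118490061, minus strand. It had 3333 UMIs at P6 and 3475 at P15, which gave 343 CPM (331 to 354) and 451 (436 to 466), a ratio of 1.32 (1.25 to 1.38). A larger ratio was measured for 29.1% of tested genes. The share of cells with a UMI was 81.1% at P6 and 81.4% at P15 unthinned, and 60.5% and 71.7% after thinning. Within clusters *Tie1* was higher at P15 beyond counting error in 4 of 8: Primitive cells (1.58, 1.10 to 2.22), Stalk cells (1.37, 1.14 to 1.65), Capillary cells (1.32, 1.01 to 1.72) and Cap-Venous cells (1.16, 1.01 to 1.32).

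The 2 receptors parted in Tip cells. *Tie1* stood at 397 CPM in P6 Tip cells, 1.18 times the other labelled cells (1.07 to 1.31), and at 450.4 in P15 Tip cells, 1.05 times. Dividing the Tip ratio of *Tie1* by that of *Tek* gave 1.89 at P6 (1.51 to 2.36) and 3.63 at P15 (1.98 to 6.66). Outside Tip cells *Tie1* ran from 522 CPM in Capillary cells through 471 in Cap-Arterial, 455 in Arterial and 408 in Venous cells, with no neighbours apart beyond counting error, down to 348 in Cap-Venous, 303 in Stalk, 259 in Proliferative and 209 in Primitive cells at P6, each above the next beyond counting error. At P15 no neighbours in the order differed, from 690.4 in Capillary to 302 in Proliferative cells.

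*Ptprb*, which encodes the phosphatase VE-PTP, showed the largest age difference of the 6 genes. It lies on chromosome 10 at 116275523 to 116389535, plus strand. It had 2378 UMIs at P6 and 7655 at P15. The level was 244 CPM at P6 (235 to 254) and 993 at P15 (971 to 1015), a ratio of 4.06 (3.88 to 4.26). Of the 9756 tested genes, 125 (1.28%) had a higher ratio. The share of cells with a UMI was 70.9% at P6 and 94.1% at P15, and 50.8% and 92.4% after thinning. Relative to *Tek*, *Ptprb* was 4.28 times higher at P15 than at P6 (3.91 to 4.69), and relative to *Tie1* 3.09 times (2.89 to 3.30).

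The difference was seen in each of the 8 clusters compared. In Primitive cells *Ptprb* rose from 88.1 to 565 CPM, a ratio of 6.41 (4.60 to 8.92), and in Stalk cells from 195 to 1032, a ratio of 5.29 (4.53 to 6.19). In Tip cells the ratio was 4.11 (3.38 to 4.98) and in Cap-Venous cells 3.87 (3.48 to 4.29). The ratios were smallest where the P6 level was highest, 2.72 in Cap-Arterial cells (2.34 to 3.17) and 2.58 in Arterial cells (1.91 to 3.47). In P15 cells with 2 or more mural markers the level of *Ptprb* was 956 CPM, 0.963 times that of all P15 cells used (0.897 to 1.03). A pair of gene models on the same strand overlap *Ptprb*, and the one with more UMIs, Gm47625, went from 238 to 569 UMIs over all barcodes. In barcodes with at most 1 endothelial marker *Ptprb* had a UMI in 6 of 26 at P6 (23.1%) and in 6 of 10 at P15 (60.0%), the highest such background of the 6 genes at P15, and at a lower depth than the cells used. From 7 UMIs at each age, the level in these barcodes was 87.3 CPM at P6, 0.357 times the cells used (0.143 to 0.737). At P15 it was 532 CPM, 0.536 times (0.215 to 1.10), so *Ptprb* was higher at P15 in these barcodes too. The source of these UMIs was not tested.

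**Figure D3:**
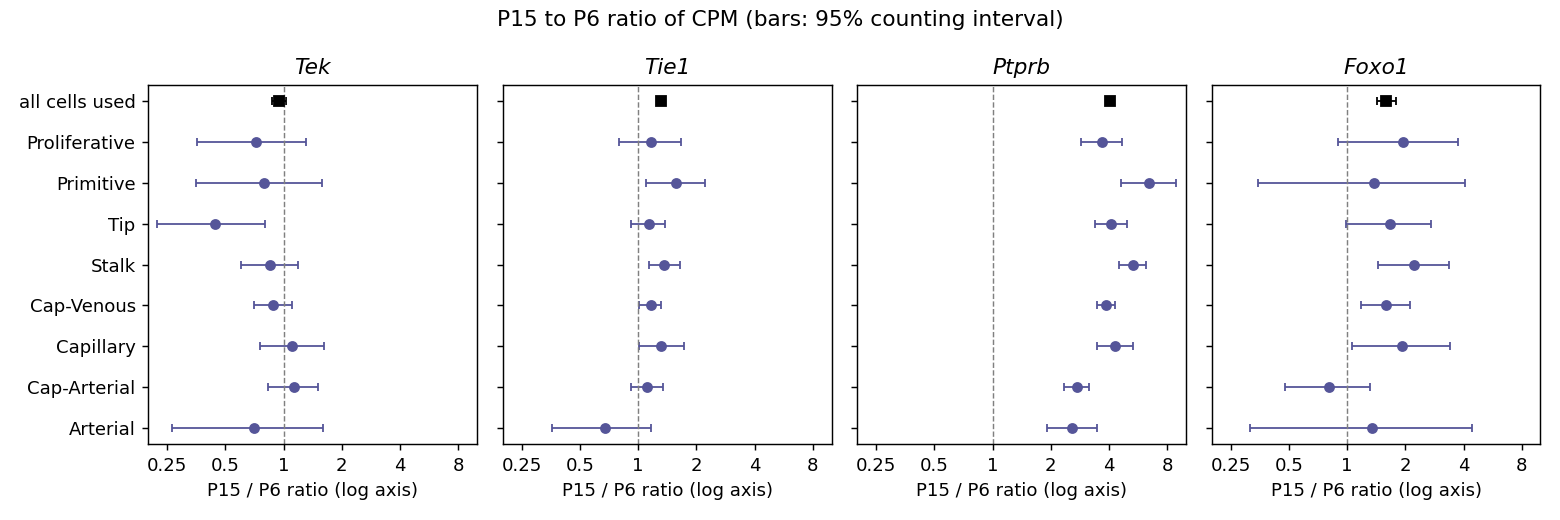
P15 to P6 ratio of CPM (log x axis) of *Tek*, *Tie1*, *Ptprb* and *Foxo1* in all cells used (black squares) and in the labelled cells of 8 clusters (circles), with 95% counting intervals; the dashed line marks a ratio of 1. All 8 *Ptprb* intervals lie above 1, from 2.58 in Arterial to 6.41 in Primitive cells, and the Tip interval of *Tek* lies below 1.

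At P6 *Ptprb* followed an order along the arterial side of the network. Arterial cells had 607 CPM (504 to 726), 2.57 times the other labelled cells (2.12 to 3.09), and were above Cap-Arterial cells (422) by a ratio of 1.44 (1.16 to 1.77). *Ptprb* was the only one of the 6 genes at least 1.5-fold higher in P6 Arterial cells, where 21.9% of tested genes passed that fold. Capillary cells (365) did not differ from Cap-Arterial or from Venous cells (288) beyond counting error, Cap-Venous cells (261) were above Proliferative cells (207), and Tip cells (189) were above Primitive cells by 2.14 (1.65 to 2.79). At P15 Capillary and Arterial cells had nearly the same level, 1569.9 and 1569 CPM, and Tip cells remained low at 774, 0.743 times the other labelled cells, against 0.750 times at P6.

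*Foxo1*, the FOXO factor best known in vessel growth, lies on chromosome 3 at 52268336 to 52353221, plus strand. It had 530 UMIs at P6 and 669 at P15, which gave 54.5 CPM (49.9 to 59.3) and 86.8 (80.3 to 93.6), a ratio of 1.59 (1.42 to 1.79). It was found in 26.9% of P6 cells and 30.2% of P15 cells, and in 14.7% and 20.6% after thinning. Within clusters it was higher at P15 beyond counting error in 3 of 8: Stalk cells, from 43.4 to 96.1 CPM (2.21, 1.44 to 3.37), Capillary cells, from 88.0 to 170.2 (1.93, 1.06 to 3.40), and Cap-Venous cells, from 58.6 to 93.0 (1.59, 1.18 to 2.11). In Cap-Arterial cells the values were 89.7 at P6 and 72.7 at P15, a ratio of 0.810 (0.479 to 1.32). Against the other labelled cells, Cap-Arterial cells stood at 1.75 times at P6 (1.35 to 2.24) and 0.790 times at P15 (0.482 to 1.24). In Tip cells *Foxo1* stood at 50.9 CPM at P6 and 84.5 at P15, near the level of the other cells at each age. A gene model on the same strand, Gm38034, overlaps *Foxo1* and had 81 UMIs at P6 and 148 at P15 over all barcodes.

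*Foxo3*, a related FOXO factor found in many cell types, lies on chromosome 10 at 42181841 to 42276755, minus strand. It had 225 UMIs at P6 and 213 at P15, that is 23.1 CPM (20.2 to 26.4) and 27.6 (24.0 to 31.6), a ratio of 1.19 (0.986 to 1.45). In labelled cells alone the ratio was 1.54, and over every barcode it was 0.949. Stalk cells, which trail the tip cells in a sprout, were the only one of the 8 clusters with a difference beyond counting error: 30.6 CPM at P6 and 78.4 at P15, a ratio of 2.56 (1.56 to 4.16), or 2.08 (1.38 to 3.14) with predicted labels. At P15 Stalk cells were at 3.04 times the other labelled cells (1.86 to 4.91). At P6 *Foxo3* was also found in barcodes with at most 1 endothelial marker: 26 of them had 99.7 CPM, from 8 UMIs, 4.31 times the level of the cells used (1.84 to 8.65). At P15 the 10 such barcodes had 0 UMIs, an interval of up to 10.2 times.

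The receptor, phosphatase and FOXO genes were high together in Capillary cells at P6. In Cap-Arterial cells at P6, *Tek* (1.32), *Tie1* (1.43), *Ptprb* (1.86) and *Foxo1* (1.75 times the other cells) were also higher beyond counting error. Only *Ptprb* and *Foxo1* passed 1.5-fold there. The share of all genes that were higher in Cap-Arterial cells was not computed, so how usual this is was not tested. There the interval of *Foxo3* (1.16) included 1 and *Angpt2* was lower (0.167). At P6, 5 of the 6 genes were at least 1.5-fold higher in Capillary cells than in the other labelled cells, where 20.1% of tested genes passed that fold, and *Angpt2* was the exception. At P15, 4 genes had the 100 labelled UMIs needed for this test, and all 4 (*Tek*, *Tie1*, *Ptprb* and *Foxo1*) passed the fold, against 13.4% of tested genes. *Foxo3* stood at 1.65 at P15 from 6 UMIs (0.585 to 3.77), and at 0.678 in thinned cells. *Foxo1* stood at 1.67 times the other cells at P6 and *Foxo3* at 1.73 times. The Capillary cells were shallow, with a median of 3204 UMIs at P6 and 2268 at P15, and their median mitochondrial share was 2.51% and 1.81%, the highest of the clusters at each age; their part in the result was not tested. Among P6 cells thinned to 3000 UMIs, which leaves 91 of the 149 Capillary cells, 3 of 6 genes passed the fold, and at P15, where 12 of 42 Capillary cells are left, 4 of 6 did.

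In Primitive cells all 6 genes were lower at P6 by at least 1.5-fold, where 39.4% of tested genes were, and all 6 intervals lay below 1. At P15, 3 of the 4 genes with enough UMIs were lower by that fold, where 29.1% of tested genes were, and only *Ptprb* (0.546, 0.424 to 0.693) and *Foxo1* (0.348, 0.0939 to 0.906) were lower beyond counting error. The ratio to the other labelled cells at P6 was 0.338 for *Ptprb*, 0.345 for *Foxo3*, 0.402 for *Foxo1*, 0.298 for *Angpt2*, 0.602 for *Tek* and 0.587 for *Tie1*. At P15 the intervals of *Tek* (0.537, 0.243 to 1.03), *Tie1* (0.757, 0.540 to 1.04) and *Foxo3* (0.440 from 2 UMIs, 0.0523 to 1.65) included 1. *Angpt2* had 0 UMIs in 36 Primitive cells at P15, with an interval of up to 29.8 CPM, against 29.3 CPM in the other cells. The interval of that ratio, 0 to 1.05, included 1. Mitochondrial and ribosomal protein genes took 26.3% of the UMIs of Primitive cells and 19.8% of those of the other cells at P6, and the median ratio of all tested genes was 0.775. With those genes left out of the totals, 6 genes still passed the fold at P6. At P15, over all 6 genes whatever their UMIs, 5 did, and 4 did in thinned cells.

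**Figure D4:**
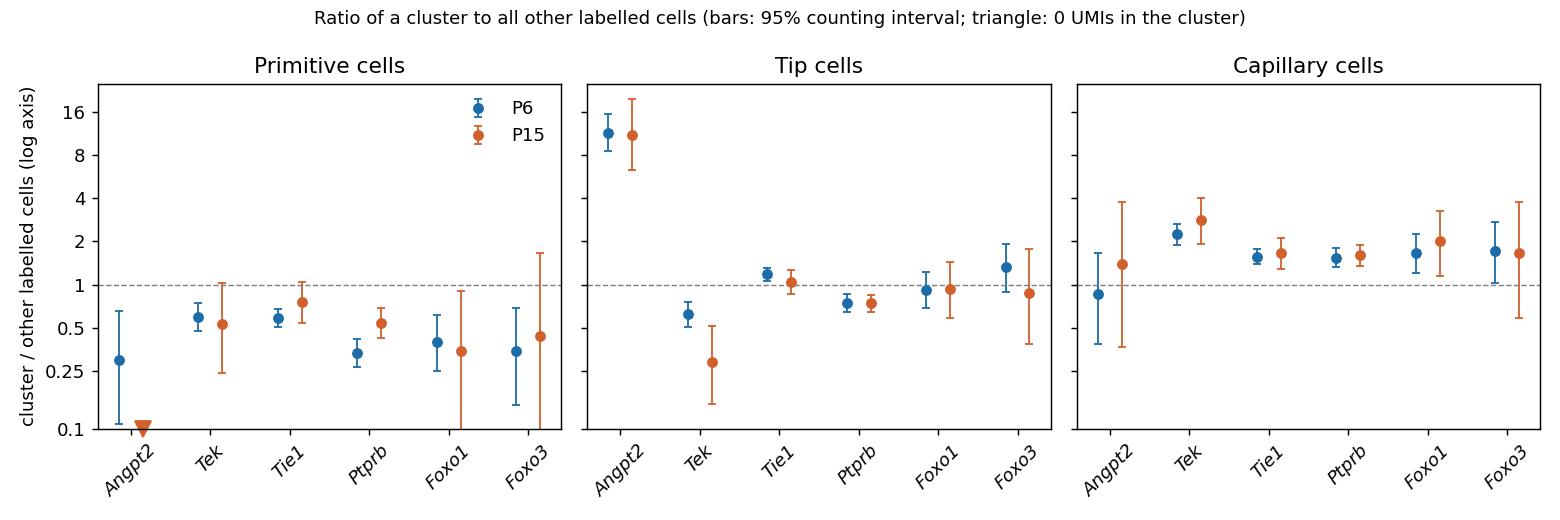
Ratio of CPM in Primitive, Tip and Capillary cells to all other labelled cells (log y axis) for the 6 genes at P6 (blue) and P15 (orange), with 95% counting intervals that are cut where they pass below 0.1; a triangle marks 0 UMIs in the cluster. *Angpt2* lies near 11 in Tip cells at both ages, where *Tek* is the lowest of the 6, and in Capillary cells the intervals of 5 genes at P6 and of 4 at P15 lie above 1.

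Across the 9 P6 clusters, levels of the receptors, the phosphatase and the FOXO genes ran together, least closely for *Foxo3* with *Tek* and *Ptprb*. On log2(CPM + 1), Pearson r was 0.917 for *Tie1* and *Foxo1*, 0.856 for *Tie1* and *Ptprb*, 0.804 for *Tek* and *Ptprb* and 0.757 for *Tek* and *Tie1*. *Foxo3* had r of 0.809 with *Tie1*, 0.787 with *Foxo1*, 0.646 with *Ptprb* and 0.630 with *Tek*. *Angpt2* had r of −0.344 with *Tek*, −0.476 with *Ptprb*, −0.0434 with *Tie1*, −0.0725 with *Foxo1* and 0.280 with *Foxo3*. How usual such values are among other pairs of genes was not tested. The 9 points share 1 library and differ in depth, so these values are a description. Of 5874 genes compared in the same way, those most like *Angpt2* were *Rell1* (0.986), *Chst1* (0.961) and *Ctnnbl1* (0.954). An r does not measure size: their P6 ratios of Tip to other labelled cells were 2.15, 5.27 and 1.17, against 11.4 for *Angpt2*. Those most like *Tie1* were *Cdh5*, the gene of the junction protein VE-cadherin (0.986), *Tmbim6* (0.979) and *Plat*, the gene of tissue plasminogen activator (0.969). The nearest to *Tek* was *Atad1* (0.965), followed by *B4gat1* (0.964) and *Lrpap1* (0.953). For *Ptprb* they were *Add1* (0.984), *Chd3* (0.981) and *Foxp1* (0.981), for *Foxo1* *Zcchc7* (0.982), *Dip2b* (0.981) and *Jcad* (0.978), and for *Foxo3* *Fbxw11* (0.979), *Ddi2* (0.970) and *Ip6k1* (0.967).

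Genes that act around Tie2 changed less with age than *Ptprb*. Of 28 genes of Tie2 signalling, 22 had enough UMIs, 6 of these were at least 1.5-fold higher at P15 and 0 were lower by that fold (18.2% and 11.4% over all tested genes), with a median ratio of 1.10 against 1.09 over all tested genes. *Ptpn11*, which encodes the phosphatase SHP2, had the highest ratio, 1.95 (1.67 to 2.28), from 27.6 to 53.8 CPM. *Nos3*, the endothelial nitric oxide synthase gene, followed with 1.72 (1.53 to 1.93). The lowest were *Ptk2*, the gene of focal adhesion kinase (0.751, 0.642 to 0.878), and the integrin gene *Itga5* (0.830, 0.752 to 0.917). In P6 Tip cells 2 of the 19 tested genes of this list were higher and 1 was lower by that fold, against 6.02% and 9.10% of all tested genes.

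A list of 24 FOXO family members and genes described as FOXO targets had more members past the fold upward. Both lists were chosen with earlier results of these data known, so their shares are a description. Of its 21 tested genes, 10 were at least 1.5-fold higher at P15 and 3 were lower, against 18.2% and 11.4% of all tested genes, with a median ratio of 1.36 against 1.09. *Klf2*, a flow-responsive transcription factor gene, rose from 549 to 2002 CPM (3.65, 3.53 to 3.76). *Fbxo32*, which encodes the ubiquitin ligase atrogin-1, rose from 3.39 to 11.4 (3.37, 2.23 to 5.18). *Myc*, a growth gene that FOXO1 can repress, had a ratio of 0.319 (0.248 to 0.407), and *Birc5*, the survivin gene of dividing cells, went from 141 to 14.8 CPM (0.105, 0.0858 to 0.127). Proliferative cells were 12.7% of labelled cells at P6 and 3.20% at P15, and the part of that difference in the list was not tested. In P6 Tip cells 3 of 19 tested genes of this list were higher and 5 lower by that fold, against the same 6.02% and 9.10%.

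**Figure D5:**
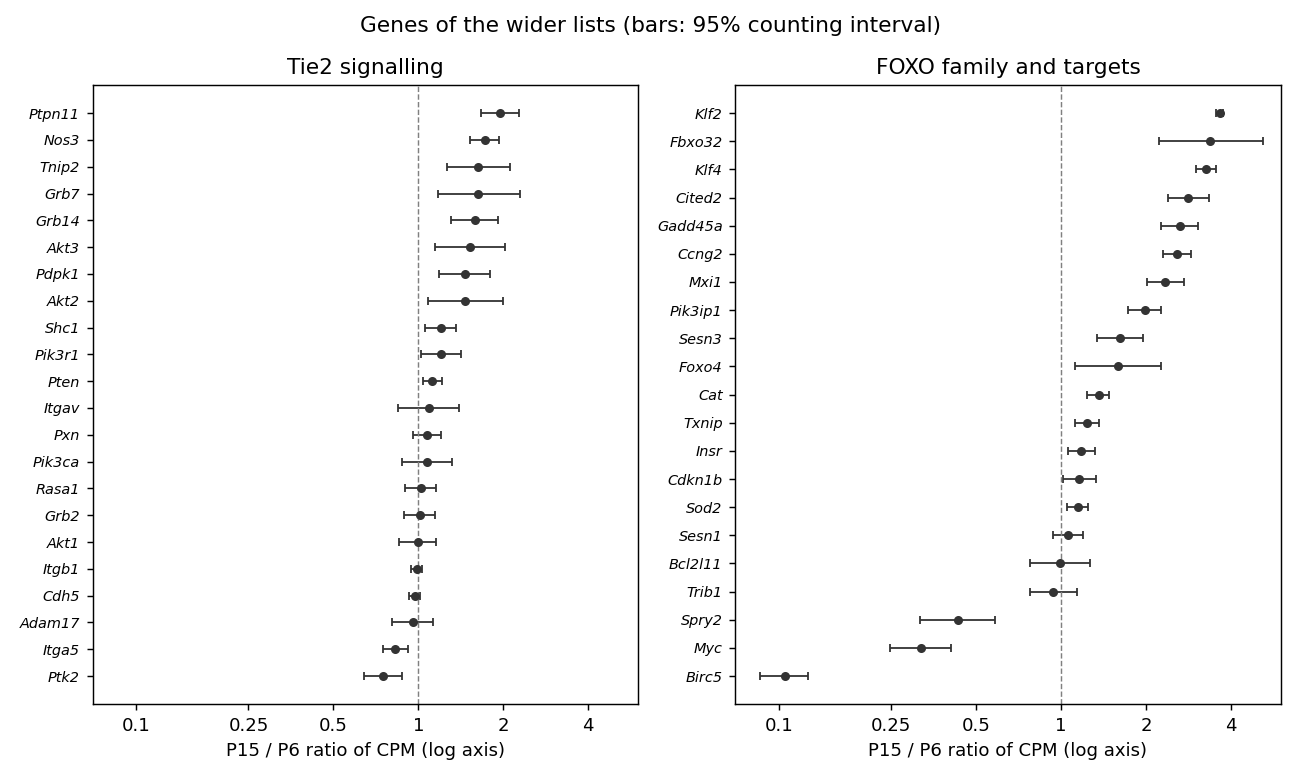
P15 to P6 ratio of CPM (log x axis) for each gene with at least 100 UMIs over both libraries of the Tie2 signalling list (22 genes, left) and of the FOXO list (21 genes, right), with 95% counting intervals; the dashed line marks a ratio of 1. The Tie2 list runs from *Ptk2* at 0.751 to *Ptpn11* at 1.95, and the FOXO list from *Birc5* at 0.105 to *Klf2* at 3.65.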

How the data were processed

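Single-cell RNA sequencing of CD31+ CD45- retinal cells gave 1 library at P6 and 1 at P15. The authors deposited raw UMI counts, 1 value per gene and barcode, 13958124 UMIs at P6 and 11589641 at P15. Per the labels the build was mm10 and Seurat 3.0 was used, and the aligner for these counts was not given in the sources used here. Ensembl identifiers were matched to GENCODE M21 (GRCm38). Cells used had 200 to 3500 genes, a mitochondrial share of 5% or less and none of Hbb-bt, Neurod1 and Cd63 detected, or held a label in the cluster sheet of the study, in which the names Primordial-Proliferative and Primordial were read as Proliferative and Primitive. Removed as doublets in an alternative were 12 P6 and 13 P15 cells that had UMIs of Xist and of a Y-linked gene.

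UMIs were summed per library or cluster. Intervals at 95% are exact Poisson for levels, conditional binomial for ratios, Wald on the log scale for quotients of ratios and Clopper-Pearson for shares. For a count of 0, the level said to be allowed is that of 3 counts. An interval given for a level of 0 is exact Poisson and reaches higher, so these bounds are not alike. A gene was tested for fold with at least 100 UMIs over both groups. The ratio step was tested on simulated data. Cells were thinned with a fixed seed. P15 labels were predicted from 15 neighbours on 13 principal components without the 6 genes and the lists (75.1% of held-out P15 cells right). With no replicates there was no test. Python 3.11.15, numpy 2.4.6, scipy 1.17.1, pandas 2.3.3 and scikit-learn 1.9.0 were used.

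The 6 genes and the lists were chosen with earlier results of these data known. The genes named are the 6, the other angiopoietin genes, the 2 highest and 2 lowest tested ratios of each list, and for each of the 6 genes the 3 most alike over P6 clusters among genes with at least 200 UMIs. Overlapping gene models and Cd63, chosen after their values were seen, are named beside the gene they touch. Alternatives changed the cells, weights, totals, labels and thinning.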

Additional observations from a re-analysis of the deposited data

Results flagged for a closer look

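Barcodes that the exclusion criteria removed held more *Angpt2* and *Foxo3* than the cells used at P6, a signal in data outside the comparisons above. In the 399 excluded P6 barcodes *Angpt2* was at 49.7 CPM against 20.6, a ratio of 2.42 (1.98 to 2.95), and *Foxo3* was at 35.0 against 23.1, a ratio of 1.51 (1.22 to 1.87). *Tek* (0.686), *Tie1* (0.692) and *Ptprb* (0.748) were lower there. In the 468 excluded P15 barcodes the ratio of *Angpt2* was 1.17 (0.947 to 1.44) and that of *Foxo3* 0.756 (0.578 to 0.980). The excluded sets of the ages were not chosen alike. Labels kept 161 of 329 barcodes over the gene limit at P6 but 29 of 199 at P15, where fewer labels were at hand. The excluded barcodes over that limit had an *Angpt2* ratio of 2.04 at P6 (168 barcodes, 1.62 to 2.56) and 0.990 at P15 (170 barcodes, 0.757 to 1.28).

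Barcodes with a UMI of *Cd63*, which the criteria treat as contaminating cells, held 70.7 CPM of *Angpt2* at P6 (220 barcodes, 3.44 times the cells used, 2.75 to 4.28) and 65.5 at P15 (193 barcodes, 2.02 times, 1.54 to 2.62). The 5 excluded P6 barcodes with the most *Angpt2* carried 9 to 10 of the 10 endothelial markers and 0 mural markers, and without the 5 highest of each set the P6 ratio was 2.22. *Foxo3* was at 83.3 CPM in the 98 P6 barcodes with a UMI of *Neurod1*, a neural transcription factor gene (3.60 times, 2.72 to 4.72), where *Angpt2* was at 8.10. In the 17 such P15 barcodes *Foxo3* was at 7.29 CPM, from 1 UMI (0.264 times, 0.00665 to 1.49).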

How the results depend on the processing

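An alternative was counted as inside when its value lay in the counting interval of the reported value. Of 61 alternative values of the 6 age ratios, 50 were inside and 11 outside; of 90 cluster ratios, 88 and 2; of 36 shares of cells, 8 and 28. With mitochondrial and ribosomal protein genes out of the total, the age ratio was 0.858 for *Tek*, 1.19 for *Tie1* and 3.67 for *Ptprb*. With every barcode it was 1.17 for *Angpt2*, 4.36 for *Ptprb* and 0.949 for *Foxo3*. For *Ptprb* it was 3.69 in thinned cells, 3.87 with every cell weighted alike and 3.86 in cells passing the criteria only. It was 1.21 for *Tie1* with P6 cluster shares in both libraries and 1.54 for *Foxo3* in labelled cells. The Tip ratio of *Angpt2* at P15 was 3.99 without the 5 cells with the most UMIs. The ratio of Cap-Arterial to other labelled cells for *Foxo1* at P15, 0.790 as reported, was 1.27 in thinned cells. The number of the 6 genes past the fold in P6 Capillary cells was 3 in thinned cells in place of 5. The cause was not tested.

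Shares of cells moved with depth. Thinned, they were 4.62% and 5.87% for *Angpt2* at P6 and P15, 34.1% and 31.8% for *Tek*, 60.5% and 71.7% for *Tie1*, 50.8% and 92.4% for *Ptprb*, 14.7% and 20.6% for *Foxo1*, and 7.04% and 8.39% for *Foxo3*. With at least 2 UMIs they were 2.21% and 2.51%, 22.3% and 14.9%, 55.7% and 56.3%, 40.4% and 84.2%, 5.55% and 7.77%, and 1.45% and 1.61%, in the same order. Over every barcode, *Angpt2* was found in 8.77% at P6 and 10.1% at P15, *Foxo1* in 33.0% at P15 and *Foxo3* in 14.9% at P6. The alternatives with *Cd63* cells kept, with predicted labels within clusters and for the counts in Capillary and Primitive cells were chosen after seeing the data. No paired analysis was possible because each age had 1 library, and leaving out a replicate was not possible for the same reason. Levels of *Angpt2* and *Foxo3* rest on 200 to 250 UMIs per library, and P15 clusters on as few as 11 cells.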
